A study of Mus musculus with 12 samples.

Results

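The major histocompatibility complex of the mouse, called H2, was described here across colon and urinary bladder of mice that had or had not lost YAP and TAZ in smooth muscle. The members were every gene whose name starts with H2-, together with Cd74, B2m, Ciita, and Nlrc5, which gave 49 of the 54532 genes measured in each library, 45 of them by name. By the names used for these genes, 2 were classical class I genes (H2-K1 and H2-D1), 27 were non-classical class I genes of the Q, T, and M regions and H2-Bl, 5 were classical class II genes, and 5 were non-classical class II genes. These counts hold the pseudogene rows H2-T-ps (non-classical class I) and H2-Ea-ps (classical class II). The partner chains Cd74 and B2m and the transactivators Ciita and Nlrc5 made up 4 more, and 6 other rows share the H2- prefix, among them pseudogene rows and H2-Ke6, a hydroxysteroid dehydrogenase that lies in the complex and presents no peptide. The H2- genes lay on chromosome 17 of GRCm38.

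RNA of whole colon and whole bladder homogenates was sequenced in 12 libraries from 9 male mice, with 3 Ctrl and 3 Y/T KO libraries per tissue and 1 mouse behind each library. Mice of both genotypes carried floxed Yap1 and Wwtr1 (TAZ), were 5 to 7 weeks of age, received 1 mg tamoxifen per day in 5 injections, and gave tissue on day 7 after the first injection. Y/T KO mice also carried the tamoxifen-inducible Cre (CreERT2) driven by the Myh11 promoter of smooth muscle, a transgene on the Y chromosome, and Ctrl mice were Cre-negative. Ctrl colon came from mice 788, 786, and 787, Y/T KO colon from mice 759, 783, and 780, Ctrl bladder from mice 784, 785, and 788, and Y/T KO bladder from mice 782, 783, and 780, and both tissues were thus taken from mice 788, 783, and 780. The floxed line was on a mixed background, and the homogenates held mucosa, muscle, vessels, and immune cells together. Expression is given as TPM (the share of a library's transcripts that a gene takes, after division by transcript length) as deposited, and folds and tests rest on log2(TPM + 0.1) after division by size factors.

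Class I molecules are displayed on nearly all nucleated cells as a heavy chain with B2m, and show peptides of the cell's own proteins to CD8 T cells and natural killer cell receptors. Class II molecules are pairs of an alpha and a beta chain on macrophages, dendritic cells, and B cells, where Cd74 (the invariant chain) holds the groove until the H2-DM pair loads a peptide for CD4 T cells. Ciita drives class II genes and Nlrc5 class I genes through factors bound to conserved boxes in their promoters, and interferon gamma raises both sets.

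The promoter boxes are shown for the genes on which the results below turn, since several members carry the same letters upstream. Windows from 250 bases before to 50 bases after a RefSeq start (GRCm38.p6) were searched for 33 of the 49 members. The stretches below were taken upstream of the gene's own exons, and those of H2-D1 and H2-DMb1 are sites of up to 30 bases inside an exon annotated by GENCODE. H2-K1 is at chr17:34000373-34000532 (minus strand), H2-Q4 at chr17:35379432-35379591 (plus), H2-Q2 at chr17:35342122-35342241 (plus), H2-D1 at chr17:35262924-35262951 (plus), H2-Aa at chr17:34287849-34287948 (minus), H2-Eb1 at chr17:34305742-34305841 (plus), and H2-DMb1 at chr17:34153099-34153125 (plus). The H2-Q4 stretch also overlaps an exon of Gm11131 on the other strand. Capitals mark the 4 motifs searched on both strands, which were cores of the kappa B site (GGGATTNCC), the interferon-type element (GTTTCACTT), the X1 box (AACNGATG), and the Y box (GATTGG, read CCAATC on the other strand).
H2-K1: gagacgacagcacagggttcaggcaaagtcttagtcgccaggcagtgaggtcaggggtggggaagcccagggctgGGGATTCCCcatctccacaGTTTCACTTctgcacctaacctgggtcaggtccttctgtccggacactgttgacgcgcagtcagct
H2-D1: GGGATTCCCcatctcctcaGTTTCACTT
H2-Q4: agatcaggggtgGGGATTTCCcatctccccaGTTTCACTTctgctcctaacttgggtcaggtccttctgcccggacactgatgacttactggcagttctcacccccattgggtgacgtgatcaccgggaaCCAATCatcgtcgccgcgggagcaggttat
H2-Q2: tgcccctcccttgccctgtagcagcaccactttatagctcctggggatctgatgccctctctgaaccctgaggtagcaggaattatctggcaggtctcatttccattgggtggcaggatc
H2-Aa: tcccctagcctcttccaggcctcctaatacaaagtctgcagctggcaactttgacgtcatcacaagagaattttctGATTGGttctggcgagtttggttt
H2-Eb1: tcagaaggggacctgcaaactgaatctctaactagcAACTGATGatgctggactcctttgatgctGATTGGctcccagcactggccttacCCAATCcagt
H2-DMb1: AACTGATGatgctaggctgattcactc

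The kappa B letters occurred in 0.938% of all 32851 promoter windows and in those of 5 members, the classical H2-K1 and H2-D1 with H2-Q4, H2-Q6, and H2-Q7. The interferon-type letters occurred in 0.399% of windows and in those of 9 members, all class I (the same 5 with H2-Q10, H2-T3, H2-T22, and H2-M3). The X1 letters occurred in 2.32% of windows and in those of 5 members, of which H2-Eb1, H2-Eb2, H2-DMb1, and H2-DMb2 are class II and H2-M10.4 is class I. The Y box, a common run of letters, occurred in 16.1% of windows and in those of 27 members. The H2-Q2 window held none of the 4 motifs. H2-Ab1, Cd74, Ciita, and Nlrc5 were among the members whose windows were not searched, so the member counts do not cover them. These matches describe letters in a window and not the binding of a factor.

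Of the 49 members, 30 passed the filter of 0.5 TPM in 3 of 6 libraries in both tissues, 3 passed it in colon alone (H2-Q3, H2-Q10, and H2-Eb2), 1 in bladder alone (H2-M5), and 15 in neither. Of these 15, 11 were listed at 0 in all 12 libraries, namely H2-Ea-ps, H2-Pa, H2-Pb, H2-M1, H2-M11, and 6 rows of the H2-M10 group. The other 4 (H2-Q5, H2-M9, H2-M10.6, and H2-M6-ps) did not exceed 2.38 TPM. By mean TPM over the 12 libraries the most abundant members were B2m (1409), H2-D1 (1061), and Cd74 (659.7), and both transactivators were low (Nlrc5 6.49, Ciita 2.67). Several members resemble each other, and the counting could divide their reads. The share of 75-base windows of a gene's transcripts found in another gene was 18.5% for H2-T22, 17.9% for H2-Q6, 15.8% for H2-DMb1 (shared with H2-DMb2), and 11% for H2-Q1, against 0% for H2-Aa, H2-Ab1, H2-Eb1, Cd74, B2m, Ciita, and Nlrc5. For H2-Ke6 it was 65.5%, shared with the overlapping gene Gm20427.

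The targeted genes were measured first. Yap1 was at 45.8 to 54.9 TPM in Ctrl colon and 41.3 to 47.0 in Y/T KO colon, where the genotypes overlapped, and at 98.6 to 109.8 in Ctrl bladder and 69.4 to 72.1 in Y/T KO bladder, where they did not (adjusted p = 0.0627 by limma). Wwtr1 overlapped between genotypes in both tissues, so that gene-level TPM of whole tissue separated the labels only in bladder and only for Yap1. Aligned sequence was 2.80 to 3.94 gigabases per library.

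1 colon library stood apart within the family, and for several results that include it the values without it are given as well. In the Y/T KO colon of mouse 759, H2-K1 was at 496 TPM against 98.2 to 167 in the other 5 colon libraries. H2-T23, which encodes the Qa-1 heavy chain that shows leader peptides to natural killer cell receptors, was at 118.9 TPM against 9.83 to 16.4. H2-T22, a ligand of gamma delta T cells, was at 35.4 TPM against 3.96 to 6.0. These 3 of the 33 members tested in colon lay more than 1 on the log2(TPM + 0.1) scale above every other colon library, where 0.257% of all genes tested in colon did so in that library. No bladder of mouse 759 was analysed here, and all 6 bladder libraries stayed at or below 170.4 TPM for H2-K1, 15.0 TPM for H2-T23, and 6.25 TPM for H2-T22.

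The same library was the lowest for other class I genes, by smaller margins. Of the 33 members, 7 were above and 9 below all other colon libraries in mouse 759 by any margin, where 10.54% of all genes tested were above and 13.1% below, and 0 members were below by the step of 1 used above (0.674% of all genes were). The 9 low members were H2-D1 (787 TPM against 947 to 1224), H2-Q1, H2-Q2, H2-Q3, H2-Q4, H2-Q6, H2-T10, H2-T3, and H2-T-ps. H2-Q1 was at 51.2 TPM against 87.2 to 157 elsewhere in colon, and H2-T3 at 9.16 against 15.6 to 22.2. The ratio of H2-K1 to H2-D1 was 0.630 in mouse 759, the highest of Y/T KO colon, and 0.104 to 0.117 in Ctrl colon. B2m, Cd74, H2-Aa, H2-Ab1, and H2-Eb1 lay within the range of the other colon libraries. Between 33 and 38 Mb of chromosome 17, where the H2- genes lie, 4 of 181 tested genes were more than 1 above the other colon libraries in mouse 759 (H2-K1, H2-T22, H2-T23, and the butyrophilin-like gene Btnl6, at 18.7 TPM against 1.06 to 2.47), and 1 was as far below (BC023719). This mouse, the step of 1, and the window were chosen after the values were seen. All libraries were aligned to GRCm38, although the floxed line was on a mixed background. How closely the H2 sequence of each mouse matched that reference was not tested.

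**Figure D1:**
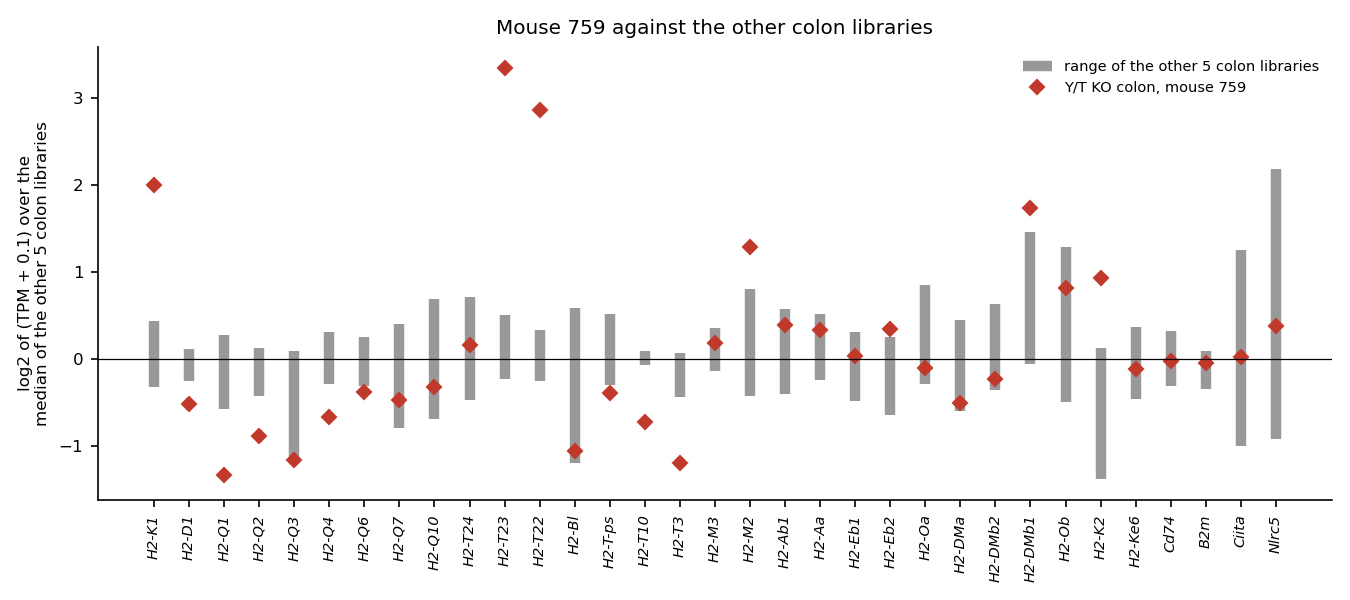
The y axis shows, on a log2 scale, TPM + 0.1 over the median of the other 5 colon libraries for the 33 members tested in colon, ordered by class and then position; grey bars span those 5 libraries and red diamonds are the Y/T KO colon of mouse 759. H2-K1, H2-T23, and H2-T22 sit far above the grey bars, and H2-D1, H2-Q1, H2-Q2, H2-Q4, H2-T10, and H2-T3 sit below them.

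A second Y/T KO colon library differed for the transactivators. In mouse 780, Nlrc5 was at 7.50 TPM against 0.786 to 2.46 in the other 5 colon libraries, and Ciita at 3.83 against 0.721 to 1.86. Of the neighbours that feed peptides to class I, the transporter gene Tap1 was at 26.2 TPM there against 9.10 to 10.11 in Ctrl colon, and the immunoproteasome genes Psmb9 and Psmb8 at 55.5 against 13.4 to 25.4 and 86.3 against 26.4 to 41.7 in the other 5. Of all genes tested in colon, 0.920% were as far above the other libraries in mouse 780. In the bladder library of the same mouse, Nlrc5 was at 6.29 TPM, the lowest of the 6 bladder libraries.

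The members with the largest differences between tissues were non-classical class I genes, and class II genes were mostly lower in colon. In Ctrl mice, 18 of 34 members tested differed between colon and bladder at an adjusted p under 0.05 (limma), where 51.4% of all 19439 genes tested did so, so that the members' share of 52.9% was close to that of all genes. Of the 18, 7 were higher in colon (25.6% of all genes) and 11 lower (25.9% of all genes). In Y/T KO mice 13 of 34 did so (38.2%, against 52.4% of all genes), 8 of them higher (26.3% of all genes) and 5 lower in colon (26.1% of all genes), and without mouse 759 the count was 11. 3 of the mice gave both tissues, and taking the mouse as a block left the counts at 18 and 13.

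H2-Q1 measured 129.6, 156.8, and 135 TPM in Ctrl colon against 8.04, 8.30, and 8.09 in Ctrl bladder. H2-Q2 measured 153, 159, and 167 TPM in Ctrl colon against 34.2, 28.8, and 27.2 in Ctrl bladder. In neither gene did the tissues come near each other, and the Y/T KO libraries kept the same order, with colon at 51.2 to 99.3 and bladder at 4.49 to 5.79 TPM for H2-Q1. Colon exceeded bladder by 4.35 on the log2 scale (SE 0.20, adjusted p = 1.4e-08, limma) for H2-Q1 and by 2.67 (SE 0.18, adjusted p = 2.79e-07, limma) for H2-Q2 in Ctrl mice. H2-T3, the thymus leukaemia antigen known from intestinal epithelium, measured 15.6, 20.7, and 21.8 TPM in Ctrl colon against 0.708, 1.68, and 1.005 in Ctrl bladder (log2 difference 4.29, SE 0.38, adjusted p = 2.71e-06, limma). H2-Q10, known as a secreted class I chain, was at 8.91 to 14.4 TPM in Ctrl colon and at or below 0.958 in all bladder libraries, and H2-Q3 was at 1.89 to 2.47 in Ctrl colon and listed at 0 in all 6 bladder libraries.

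The Q genes did not follow one pattern along the chromosome. From H2-Q1 to H2-Q10 (chr17:35320405-35474563), H2-Q1, H2-Q2, H2-Q3, H2-Q4, and H2-Q10 were higher in colon of both genotypes, H2-Q6 passed the test in neither, and H2-Q7, which encodes the Qa-2 antigen, was higher in Ctrl bladder. H2-Q7 measured 1.45, 1.497, and 2.58 TPM in Ctrl colon against 4.96, 8.18, and 7.55 in Ctrl bladder (log2 difference -1.61, SE 0.32, adjusted p = 0.00147, limma), and the difference in Y/T KO mice was -0.28 (adjusted p = 0.494, limma). H2-Q4 measured 136, 108, and 124 TPM in Ctrl colon against 70.2, 66.6, and 66.5 in Ctrl bladder (log2 difference 1.11, SE 0.21, adjusted p = 0.00112, limma), so that the tissues did not overlap. H2-Bl, at 2.92 to 4.43 TPM in Ctrl colon and 1.16 to 1.95 in Ctrl bladder, was the other class I gene called higher in Ctrl colon (adjusted p = 0.0256, limma), a call lost with TPM as deposited (adjusted p = 0.0597) and without Ctrl colon mouse 786 or 787 or Ctrl bladder mouse 784 or 788 (log2 differences 1.42 to 1.56). Among members called in Y/T KO mice alone, H2-K2 was higher in colon (adjusted p = 0.0130) and H2-T24 lower (adjusted p = 0.0280, limma), and both calls were lost without mouse 759, that of H2-T24 also without Y/T KO colon mouse 783 or Y/T KO bladder mouse 783 or 780 (adjusted p = 0.0550 to 0.0841 over these 4). H2-M5 was at 1.17 to 2.42 TPM in bladder and at or below 0.123 in colon, a difference whose size depends on the pseudocount (-3.79 on the log2 scale in Ctrl mice, -1.39 with a pseudocount of 1 TPM). Summed over the Q genes, Ctrl colon held 458 to 469.5 TPM, Y/T KO colon 247 in mouse 759 and 389 and 404 in the others, Ctrl bladder 139 to 147, and Y/T KO bladder 87.9 to 114.

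**Figure D2:**
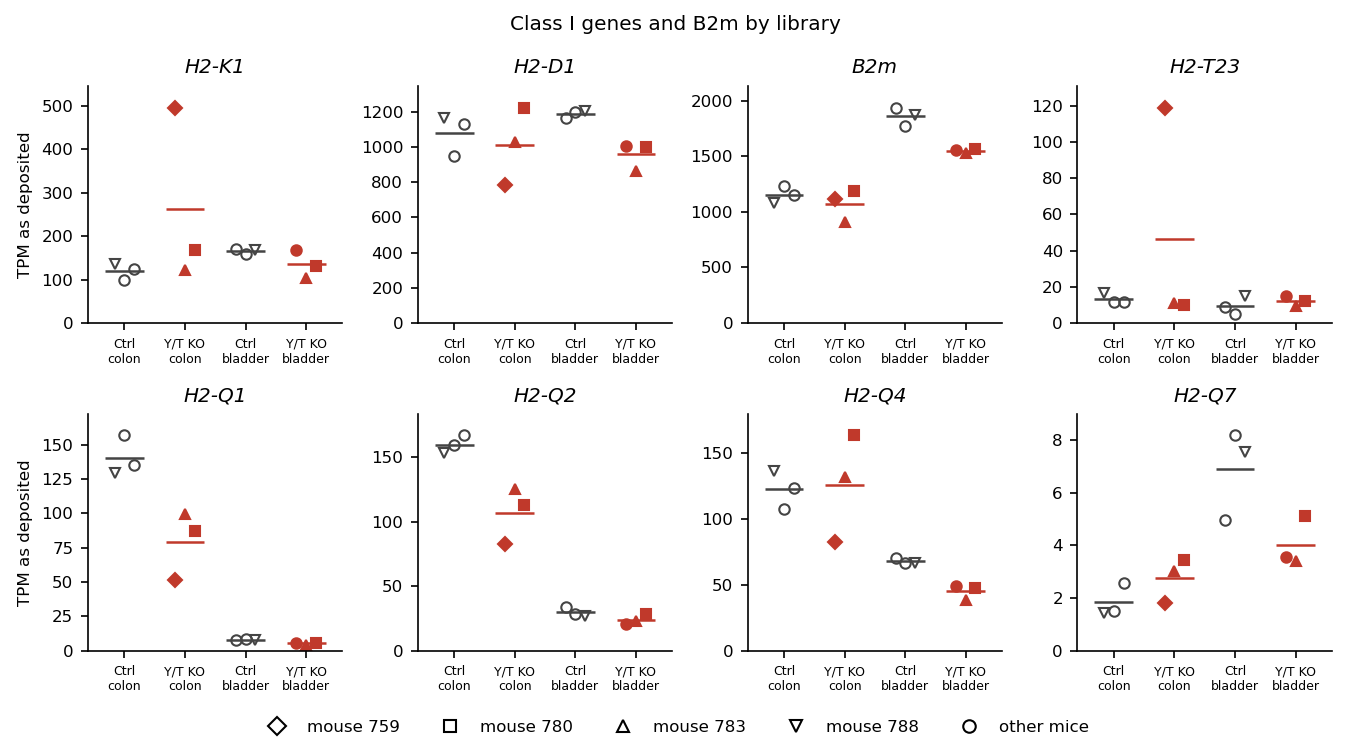
Each panel plots TPM as deposited (y axis, from 0) by group for 8 genes of the class I system; points are single libraries, horizontal lines group means, open symbols Ctrl and filled symbols Y/T KO, with mice 759, 780, 783, and 788 marked by shape. H2-Q1 and H2-Q2 separate the tissues, B2m is higher in bladder, and mouse 759 stands alone in the H2-K1 and H2-T23 panels.

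H2-D1 overlapped between the tissues at 947 to 1167 TPM in Ctrl colon and 1166 to 1205 in Ctrl bladder, with a log2 difference of 0.12 (SE 0.16, adjusted p = 0.571, limma) that was -0.14 with TPM as deposited. In Y/T KO mice the H2-D1 difference was 0.34 (adjusted p = 0.0990), and without mouse 759 it was 0.51 and passed (adjusted p = 0.0140, limma). H2-K1 did not overlap at 98.2 to 136 TPM in Ctrl colon and 159 to 170.4 in Ctrl bladder, and its log2 difference was -0.23 (SE 0.42, adjusted p = 0.681, limma), or -0.22 (SE 0.20, adjusted p = 0.368) without mouse 759, which shares the estimate of the spread. B2m, their partner, was higher in Ctrl bladder, with 1076, 1232, and 1155 TPM in Ctrl colon against 1938, 1774, and 1869 in Ctrl bladder (log2 difference -0.43, SE 0.11, adjusted p = 0.00835, limma). In Y/T KO mice B2m was at 906 to 1191 TPM in colon and 1533 to 1561 in bladder, without overlap. It was not called there, except with TPM or FPKM as deposited or without Y/T KO colon mouse 780. The ratio of B2m to the sum of all class I heavy chain rows, the pseudogene row H2-T-ps included, was 0.555 to 0.771 in the 6 colon libraries. In the 6 bladder libraries it was 1.13 to 1.36, with no overlap. H2-M3, which shows formylated bacterial peptides, was at 15.1 to 16.7 TPM in Ctrl colon and 19.6 to 25.3 in Ctrl bladder (adjusted p = 0.144, limma), and was called lower in colon with TPM (adjusted p = 0.0103) or FPKM (adjusted p = 0.0470) as deposited.

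Class II genes were lower in Ctrl colon than in Ctrl bladder, and fewer of them passed the test in Y/T KO mice. H2-Aa measured 139, 128, and 151 TPM in Ctrl colon against 354, 317, and 351 in Ctrl bladder. H2-Ab1, its beta chain partner, measured 93.5, 79.4, and 105.3 TPM in Ctrl colon against 219, 191, and 206 in Ctrl bladder. H2-Eb1 was at 132, 104.7, and 147 TPM and 319, 282, and 315. For all 3 every bladder library exceeded every colon library, and the differences were -1.03 (SE 0.15, adjusted p = 1.46e-04), -0.89 (SE 0.17, adjusted p = 8.81e-04), and -1.01 (SE 0.17, adjusted p = 4.8e-04) on the log2 scale (limma). Cd74 followed with 374, 319, and 397 TPM in Ctrl colon against 961, 901, and 927 in Ctrl bladder (log2 difference -1.10, SE 0.17, adjusted p = 2.08e-04, limma), and its ratio to the sum of the class II genes stayed between 0.764 and 1.07 in all 12 libraries.

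Of the genes that load class II, H2-DMa (13.0 to 20.0 TPM in Ctrl colon, 33.1 to 34.7 in Ctrl bladder) and H2-DMb1 (2.37 to 2.48 and 5.74 to 6.16) were lower in Ctrl colon at adjusted p = 0.00852 and 0.0125 (limma). H2-DMb2 and the DM modulators H2-Oa and H2-Ob had negative differences in Ctrl mice that did not pass the test, except H2-DMb2 with TPM as deposited (adjusted p = 0.0356). Ciita was at 0.721 to 1.86 TPM in Ctrl colon and 3.19 to 5.14 in Ctrl bladder (log2 difference -1.45, SE 0.43, adjusted p = 0.0150, limma), a call lost without Ctrl colon mouse 788 (adjusted p = 0.0647) or Ctrl bladder mouse 784 (adjusted p = 0.0503). Nlrc5 was at 0.786 to 2.46 TPM and 10.05 to 13.0 (log2 difference -2.68, SE 0.65, adjusted p = 0.00528, limma). The median over the 10 tested class II genes with Cd74 was -0.86 in Ctrl mice and -0.37 in Y/T KO mice, beside 0.01 and 0.00 over all genes tested. H2-Eb2, a second E beta gene, went the other way, at 0.495 to 1.08 TPM in all colon libraries and at most 0.752 in bladder, and was called higher in Y/T KO colon (log2 difference 2.01, SE 0.54, adjusted p = 0.00851, limma), but it was too low to be tested with FPKM as deposited or under a minimum mean TPM of 1. The Y/T KO bladder libraries held 0.2505, 0, and 0.341 TPM of H2-Eb2, so the size of this difference depends on the pseudocount. In Y/T KO mice H2-Aa, H2-Eb1, and Cd74 were called lower in colon, H2-Eb1 not without Y/T KO colon mouse 759 (adjusted p = 0.0511) or Y/T KO bladder mouse 782 (adjusted p = 0.0644). H2-Ab1, H2-DMa, H2-DMb1, Ciita, and Nlrc5 were not called there. None of the 5 non-classical class II genes passed, and 2 of them had a positive difference. H2-Ab1, H2-DMa, and Nlrc5 were called lower with TPM as deposited, and H2-DMa and Nlrc5 also without Y/T KO colon mouse 780.

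Macrophage and dendritic cell markers, but not B cell markers, were lower in Ctrl colon. All 8 macrophage markers had a negative difference in Ctrl mice, 7 of them at an adjusted p under 0.05 (limma), with a summed level of 433 to 587 TPM in Ctrl colon and 1071 to 1417 in Ctrl bladder. Of 8 dendritic cell markers 5 were lower at that threshold and none higher, with sums of 11.4 to 13.6 and 33.6 to 51.0 TPM. The 8 B cell markers summed to 12.8 to 29.1 and 10.53 to 24.4 TPM, and of the 6 tested, 5 had a positive difference (1 called higher in colon, 0 lower, median 0.67). None of the markers of these 3 cell types was at 0 in all libraries. All 8 endothelium, all 8 smooth muscle, and 3 of 4 pan-leukocyte markers were also called lower in Ctrl colon, and 2 of 6 plasma cell markers higher. In Y/T KO mice 2 of 8 macrophage and 6 of 8 dendritic cell markers were called lower in colon, and none higher. The part of any of these cells in the class II difference was not tested. In such tissue RNA a lower number of cells cannot be told apart from less RNA per cell. For the Q genes and H2-T3, colon epithelium markers summed to 2941 to 3454 TPM in Ctrl colon and 141 to 167 in Ctrl bladder. Most of the bladder sum was Krt20 (128 to 162 TPM), which is also among the urothelium markers. Cdx2 was at 0 in all 6 bladder libraries and Muc2 at or below 0.918 TPM in colon. The part of colon epithelium was not tested.

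**Figure D3:**
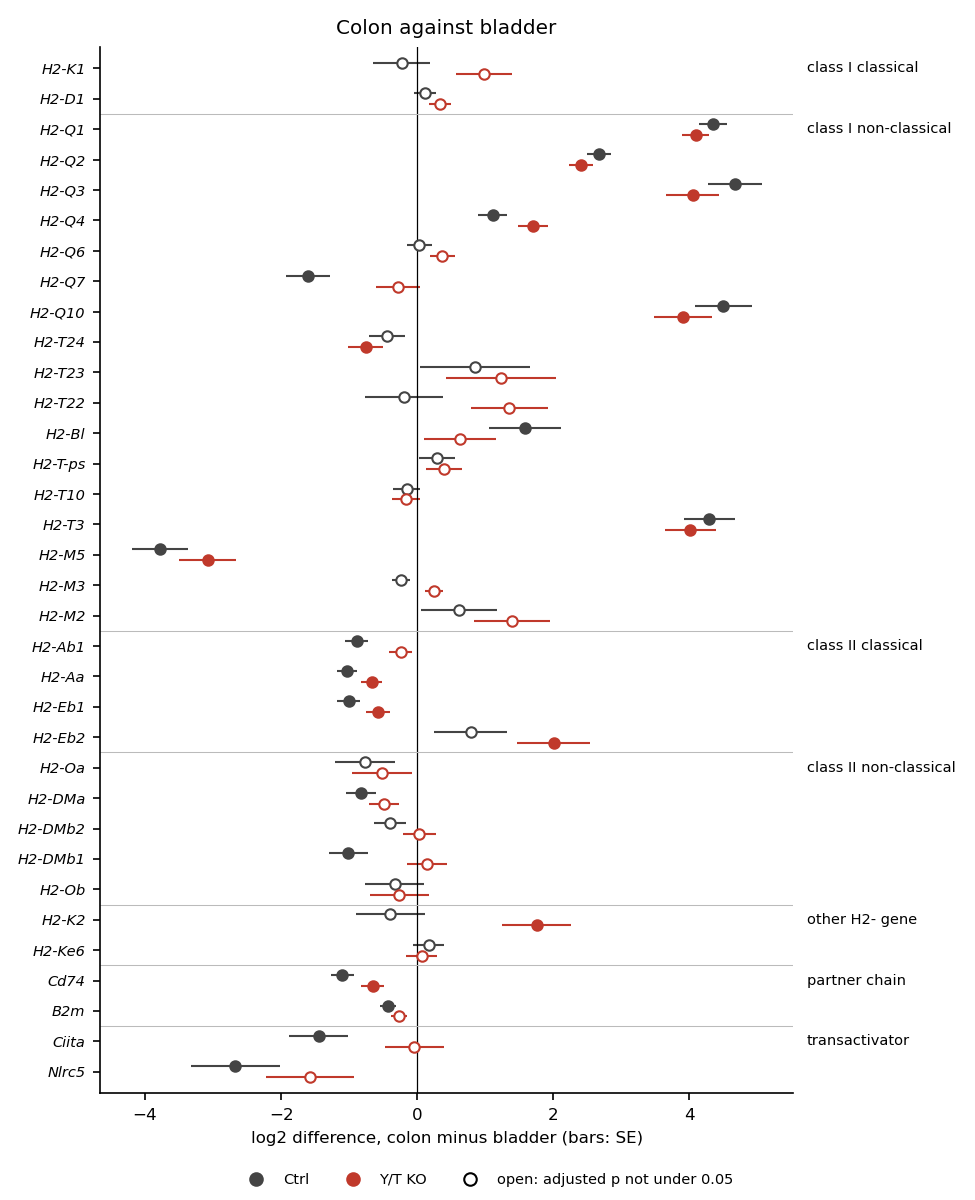
The x axis is the log2 difference of colon minus bladder with SE bars for the 34 members tested, grouped by class and ordered by position, in Ctrl (grey) and Y/T KO (red); filled points passed an adjusted p under 0.05. H2-Q1, H2-Q2, H2-Q3, H2-Q10, and H2-T3 lie above 2 in both genotypes, most class II points lie below 0, and the value of H2-Q3 depends on the pseudocount because it was listed at 0 in bladder.

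No member of the family passed the test between Y/T KO and Ctrl, the comparison that asks what loss of YAP and TAZ in smooth muscle does. In colon, 0 of 33 members were called at an adjusted p under 0.05 by limma, where 0.137% of all 17500 genes tested were, and in bladder 0 of 31, where 0.296% of 18237 genes were. At an unadjusted p under 0.05, 7 of 33 members passed in colon (21.2%, against 9.79% of all genes) and 10 of 31 in bladder (32.3%, against 14.8%). Groups did not overlap for 10 members in colon (15.8% of all genes) and 9 in bladder (20.4% of all genes). With 3 libraries per group an exact permutation test of a single gene cannot go below p = 0.10.

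In colon the lowest p-value belonged to H2-DMb1, a chain of the peptide-loading DM pair. Ctrl colon had 2.47, 2.48, and 2.37 TPM of it against 8.51, 7.00, and 5.15 in Y/T KO colon. Every Y/T KO library was higher, by 1.46 on the log2 scale (SE 0.24, adjusted p = 0.112, limma), and the adjusted p ran from 0.0677 to 0.298 over all alternative settings. Without mouse 759 the H2-DMb1 difference was 1.30. Its closest relative H2-DMb2, with which it shares sequence, was at 5.13 to 6.63 TPM in Ctrl colon and 5.62 to 10.33 in Y/T KO colon (log2 difference 0.38, adjusted p = 0.676, limma).

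3 of the 4 tested classical class II genes had a positive difference in Y/T KO colon, none of which passed the test, and H2-Eb2 had a difference of -0.04 with overlap (adjusted p = 0.986, limma). H2-Ab1 measured 138, 129.8, and 157 TPM in Y/T KO colon against 79.4 to 105.3 in Ctrl colon (log2 difference 0.65, SE 0.18, adjusted p = 0.369, limma). H2-Aa was at 191, 168, and 217 TPM against 128 to 151 (0.49, SE 0.17, adjusted p = 0.458), and H2-Eb1 at 150.2, 163, and 183 against 104.7 to 147 (0.41, SE 0.20, adjusted p = 0.551). For these 3 genes the genotypes did not overlap, and Cd74 did overlap, at 391, 494, and 492 TPM against 319 to 397. Without mouse 759 the differences of H2-Ab1, H2-Aa, and H2-Eb1 were 0.67, 0.49, and 0.48. The sum of the class II genes was 340 to 431 TPM in Ctrl colon and 497 to 602 in Y/T KO colon. Beside this, 8 of 8 macrophage markers had a positive difference in colon (3 at an unadjusted p under 0.05, the complement genes C1qa, C1qb, and C1qc), with sums of 433 to 587 and 559 to 834 TPM that overlapped, dendritic cell markers summed to 11.4 to 13.6 and 13.1 to 18.6, B cell markers to 12.8 to 29.1 and 8.82 to 17.8, and of 6 tested T and NK cell markers 4 were higher at an unadjusted p under 0.05. All 8 smooth muscle markers stood lower, with sums of 7481 to 8227 and 4913 to 5780, and the part of these cells was not tested.

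4 non-classical class I genes were lower in Y/T KO colon at an unadjusted p under 0.05 (4.63% of all genes were) and did not overlap. H2-Q1 was at 51.2, 99.3, and 87.2 TPM against 129.6 to 156.8 in Ctrl colon (log2 difference -0.84, SE 0.24, adjusted p = 0.376, limma), and the difference was -0.55 without mouse 759. H2-Q2 was at 82.6, 125, and 113 TPM against 153 to 167 (-0.57, adjusted p = 0.432), and -0.39 without that mouse. H2-Bl was at 1.35, 2.32, and 1.22 TPM against 2.92 to 4.43 (-1.19, SE 0.32, adjusted p = 0.352). H2-Q10, singled out after its values were seen, was at 7.11, 6.21, and 5.48 TPM against 8.91 to 14.4. The summed colon epithelium markers were at 1850 to 2466 TPM in Y/T KO against 2941 to 3454 in Ctrl, a difference carried by Car1 and Slc26a3. Of the 7 tested, 3 had a positive difference (the median was -0.09), among them Cdx1 (205 to 356 TPM in Ctrl, 296 to 409 in Y/T KO) and Cdx2 (30.0 to 69.3 and 58.5 to 89.7), and their part was not tested. H2-K1 (log2 difference 0.90) and H2-T22 (1.28) were at 0.30 and 0.40 without mouse 759, and H2-T23 went from 0.88 to -0.29.

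**Figure D4:**
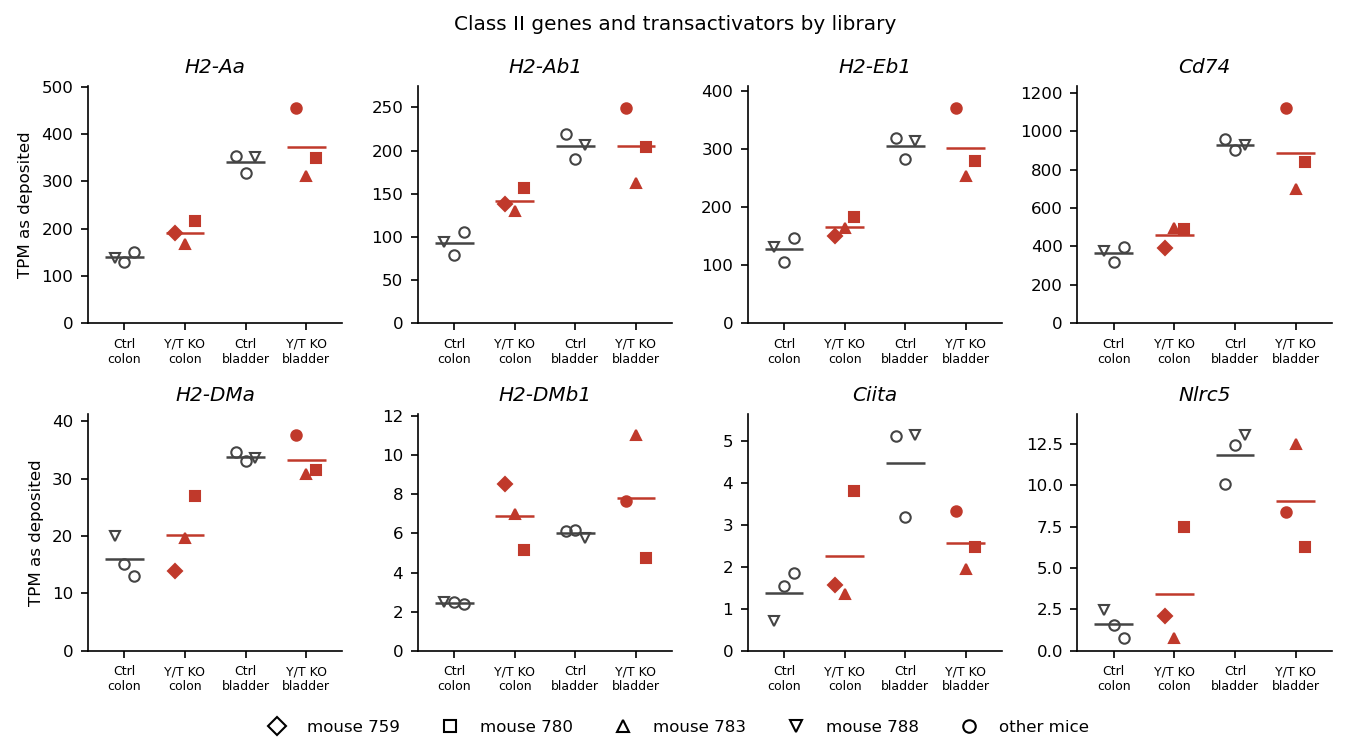
Each panel plots TPM as deposited (y axis, from 0) by group for 4 classical class II and invariant chain genes, 2 DM genes, and the transactivators, with the same symbols as for class I (open Ctrl, filled Y/T KO, lines at group means, mice marked by shape). The bladder libraries lie above Ctrl colon in every panel, the Y/T KO colon libraries of H2-Aa, H2-Ab1, H2-Eb1, and H2-DMb1 lie above Ctrl colon, and mouse 780 is the high Y/T KO colon point for Ciita and Nlrc5.

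In colon 17 of the 33 members had a positive difference, with a median of 0.03 on the log2 scale. In bladder, of 31 tested, 25 had a negative difference and 6 a positive one, where 50.3% of all genes were positive, and the median was -0.27 on the log2 scale beside 0.00 over all genes. Some of these signs changed under alternative settings, mostly with a library left out. Among negative members these were Cd74, H2-Ab1, H2-Bl, H2-DMa, H2-DMb2, H2-Eb1, and H2-T-ps. Among positive members they were H2-Aa, H2-DMb1, H2-Ke6, and H2-T3. H2-Q4 had the lowest p-value, at 70.2, 66.6, and 66.5 TPM in Ctrl bladder and 49.4, 38.8, and 47.7 in Y/T KO bladder. The genotypes did not overlap, and the difference was -0.59 (SE 0.10, adjusted p = 0.101, limma), with an adjusted p of 0.0957 to 0.305 over all alternative settings. H2-D1 was at 1166, 1197, and 1205 TPM in Ctrl and 1008, 866, and 999 in Y/T KO (-0.32, SE 0.07, adjusted p = 0.148), B2m at 1938, 1774, and 1869 and 1554, 1533, and 1561 (-0.26, SE 0.08, adjusted p = 0.211), and H2-Q1 at 8.04 to 8.30 and 4.49 to 5.79 (-0.61, SE 0.15, adjusted p = 0.170). None of the 3 overlapped between the genotypes. H2-Q7 measured 3.56, 3.40, and 5.11 TPM in Y/T KO bladder, where it overlapped with Ctrl (-0.75, adjusted p = 0.258).

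The other bladder members below an unadjusted p of 0.05 were H2-K2, H2-Q6, H2-Ob, and Ciita, lower in Y/T KO, and H2-T24, higher, which made 9 members lower (8.2% of all genes were) and 1 higher. Ciita was at 5.12, 3.19, and 5.14 TPM in Ctrl and 3.33, 1.95, and 2.47 in Y/T KO (-0.77, SE 0.28, adjusted p = 0.289). Nlrc5 was at 10.05 to 13.0 and 6.29 to 12.5 TPM (-0.43, adjusted p = 0.507). The class II genes H2-Aa (0.11), H2-Ab1 (-0.02), and H2-Eb1 (-0.03) and Cd74 (-0.10) were near 0 in bladder and overlapped, with adjusted p-values of 0.727 to 0.971 (limma). Pan-leukocyte markers summed to 256 to 328 TPM in Ctrl bladder and 182 to 280 in Y/T KO bladder, with 4 of 4 below 0 and 3 at an unadjusted p under 0.05, and smooth muscle markers to 34910 to 45460 and 16560 to 30440; their part was not tested.

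**Figure D5:**
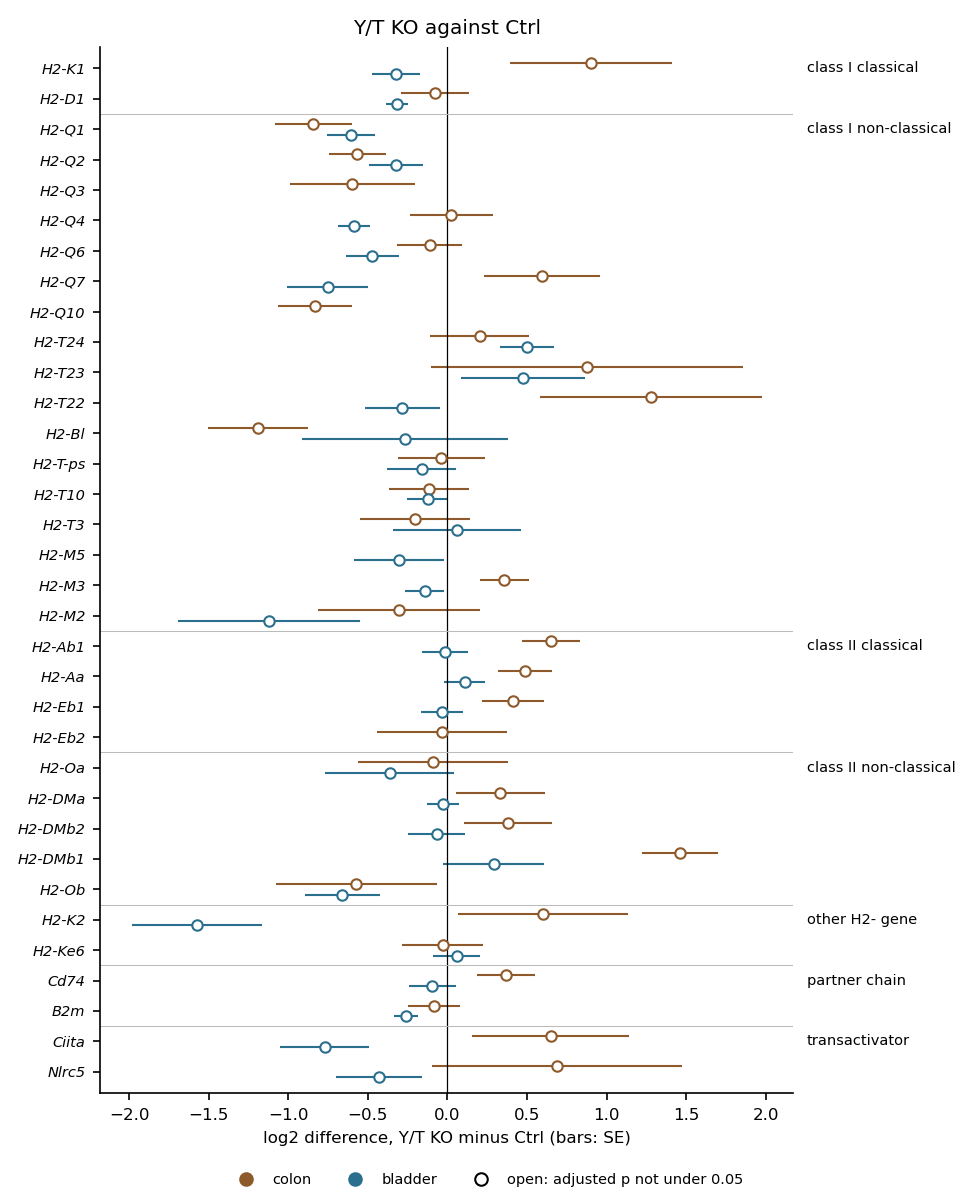
The x axis is the log2 difference of Y/T KO minus Ctrl with SE bars, for members tested in colon (brown, 33) and bladder (blue, 31), grouped by class and ordered by position. All points are open because none passed an adjusted p under 0.05, and 25 of the 31 bladder points lie below 0.

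The effect of the knockout was compared between tissues by the interaction term. Of 30 members tested, 0 passed an adjusted p under 0.05 by limma (0.0552% of 16298 genes did), and 6 had an unadjusted p under 0.05 (20.0%, against 12.7% of all genes). These were H2-K2, H2-Q7, H2-DMb1, H2-Ab1, H2-M3, and Ciita, all with the higher knockout difference in colon (7.08% of all genes), and their adjusted p-values ran from 0.280 to 0.373. Without mouse 759, 8 of 30 members had an unadjusted p under 0.05 and 0 passed an adjusted p under 0.05 (limma). The interaction of H2-Q4 went from 0.59 to 0.87 without that mouse. All 9 class II genes with Cd74 tested had a positive interaction, with a median of 0.43 beside -0.02 over all genes. A positive sign was also found for 23 of the 30 members and for 48.45% of all genes. Among marker lists it was found for 8 of 8 macrophage (median 0.67), 4 of 4 pan-leukocyte (0.62), and 6 of 6 tested T and NK cell markers (0.81). For dendritic cell markers it was 6 of 8, and for tested B cell markers 3 of 5. It was also found for 6 of 8 smooth muscle (0.50), 4 of 6 plasma cell (0.20), and 4 of 8 endothelium markers (0.04). Of tested colon epithelium markers 1 of 3 was positive, and of tested urothelium markers 2 of 5. The part of any of these cells in the interaction was not tested. The tissue comparisons of the 2 genotypes enter this term, so that it is not separate from them.

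The machinery around the family was followed in lists. Of 13 tested genes of class I peptide supply and loading, 0 passed an adjusted p under 0.05 between genotypes in either tissue by limma. In colon 9 of 13 were above 0 and 2 had an unadjusted p under 0.05, Psmb9 (13.4 to 15.8 TPM in Ctrl, 20.0 to 55.5 in Y/T KO) and Tapbpl (25.6 to 26.7 and 31.3 to 42.2). In bladder 12 of 13 were below 0 and 4 had an unadjusted p under 0.05, of which Tap1, a subunit of the peptide transporter, had the lowest. Tap1 measured 24.9, 21.03, and 25.2 TPM in Ctrl bladder against 14.2, 10.8, and 12.1 in Y/T KO bladder (log2 difference -0.94, SE 0.13, adjusted p = 0.0617, limma), without overlap.

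Of 7 tested genes of class II peptide processing, 0 were called between genotypes by limma and 1 in colon and 0 in bladder had an unadjusted p under 0.05. The lowest p was that of the lysosomal protease gene Lgmn in colon (0.52, adjusted p = 0.442) and of Ctsh in bladder (-0.38, adjusted p = 0.356). Of 7 tested genes of the promoter complex (RFX, NF-Y, and CREB family), 0 were called by limma and 0 had an unadjusted p under 0.05 in either tissue, with Nfyc lowest in colon (0.16) and Atf1 in bladder (-0.42). Of 10 tested genes of interferon gamma signalling, 0 were called by limma, 0 in colon and 2 in bladder had an unadjusted p under 0.05, and Irf1 had the lowest p in bladder (-0.36, adjusted p = 0.158). Ifng itself was listed at 0 in 4 of the 6 colon libraries and did not exceed 1.11 TPM, its value in mouse 780. Of 8 tested class I-like genes outside H2, 0 were called by limma and 1 in colon and 3 in bladder had an unadjusted p under 0.05. Fcgrt, the neonatal Fc receptor, had the lowest in colon (37.5 to 48.5 TPM in Ctrl, 58.6 to 126 in Y/T KO, adjusted p = 0.310) and Mill2 in bladder (27.9 to 28.5 and 35.4 to 47.8 TPM, adjusted p = 0.140).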

How the data were processed

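Stranded mRNA libraries were sequenced by the authors, who aligned reads to GRCm38 with HISAT2 and estimated expression with StringTie (versions not given in the sources used here). The deposited TPM values give each gene's share of a library after division by transcript length, and the deposited FPKM values are fragments scaled to length and depth. The deposited coverage, the mean number of reads over a base, gave the aligned bases through its ratio to FPKM. TPM was summed by gene ID. Size factors (median of ratios) were 0.877 to 1.14. Genes that reached 0.5 TPM in 3 or more of the 6 libraries of a tissue were fitted with limma 3.58.1 in R 4.3.3 (trend and robust eBayes, Benjamini-Hochberg adjustment over all genes tested, two-sided). Genotypes were compared within each tissue, and tissues and the interaction in a fit of all 12 libraries. TPM holds no counts, so counting error was not estimated apart. Every p-value rests on the spread between libraries of a group, which holds differences between mice and library noise together. Python 3.11.15 with pandas 2.3.3 served for the tables and matplotlib 3.10.9 for plots.

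The members and lists were chosen with earlier results of these data known. Genes named were those of the core presentation pathway, the 3 highest of each class by mean TPM, and the 3 with the lowest p between genotypes in each tissue; others, such as H2-T3, H2-T22, H2-Q10, and H2-M5, were named after their values were seen. Alternatives were a pseudocount of 1 TPM, no filter, a mean TPM of at least 1, TPM or FPKM as deposited, no trend and robust options, 1 fit over all libraries, the mouse as a block, and each library left out. Mouse numbers in the labels give the pairing. Deviations from group means correlated at 0.0329 on average in the 3 pairs of libraries from 1 mouse and at -0.00664 between different mice.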

Additional observations from a re-analysis of the deposited data

How the results depend on the processing

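No member was called between genotypes in colon or bladder, or in the interaction, under any of the alternative settings. Called members between tissues numbered 18 to 19 in Ctrl mice over the settings that kept every library (18 in the reported fit) and 12 to 17 in Y/T KO mice (13 in the reported fit). Leaving out 1 library at a time gave 16 to 18 in Ctrl and 11 to 18 in Y/T KO, the lowest without Y/T KO colon mouse 759 (11, of which 10 were in the reported 13) and the highest without Y/T KO colon mouse 780. With the replicate block (the mouse) the counts were 0, 0, 18, 13, and 0 for colon, bladder, Ctrl tissues, Y/T KO tissues, and the interaction, and the block changed no call of a member. TPM as deposited shifted the median tissue difference of all genes by -0.24 in Ctrl and -0.26 in Y/T KO, and split all called genes 3527 to 6338 and 3648 to 6719 (higher to lower in colon) in place of 4973 to 5026 and 5117 to 5072. Over these values H2-Q1, H2-Q2, H2-Q3, H2-Q4, H2-Q10, and H2-T3 kept their calls as higher in colon, and H2-Aa and Cd74 as lower, in both genotypes under all alternatives run. Depth is known only as aligned bases, and members near 1 TPM, such as H2-M2, H2-Oa, and H2-Eb2, rest on few reads.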
